A study of Mus musculus with 6 samples.

Results

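The 7 mouse Ly6 surface antigen genes Ly6a, Ly6c1, Ly6c2, Ly6e, Ly6g, Ly6d and Ly6i were read out from a table of 55401 Ensembl genes in 6 RNA-seq libraries. Ly6a was taken for its contrast between the 2 sets of libraries, and its 6 paralogs were listed to ask whether they share that contrast. The values of all 7 genes in set B and set A are therefore given as descriptions, and nothing is read from the calls that the fit over all genes makes on them. The mice were wild type (WT). Dermatitis-like disease was raised with MC903, an analogue of vitamin D given daily on both ears (2 nmol in 10 µL of ethanol, day 0 to day 6), with the ethanol vehicle on the ears of controls. The libraries are labelled as basophils, sorted as live CD45+Lin- cells with CD49b and FcεRIα or surface IgE, and form set A and set B with 3 libraries each. The labels do not say which set came from MC903-treated mice, so each difference is set B relative to set A. Blood is the labelled tissue, whereas ear skin stands in the design text. The protocol speaks of pooled RNA and gives no number of mice per library, and the age of the mice is not given, so every spread and p-value covers only these libraries and may be technical.

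Ly6 proteins are small, cysteine-rich antigens held on the outer face of the cell by a glycosylphosphatidylinositol (GPI) anchor, and their genes form a cluster on mouse chromosome 15. Blood cell types are told apart by them. Ly6a encodes Sca-1, used to sort haematopoietic stem cells and raised by interferons on many leukocytes. Ly6c1 and Ly6c2 encode the Ly6C antigen of classical monocytes, some T cells and endothelium, and Ly6g encodes the antigen that defines mouse neutrophils in flow cytometry. Ly6e is widely expressed and interferon-inducible, and Ly6d marks B lymphoid progenitors and squamous epithelium.

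Markers of several blood cell types were present in every library. Total counts were 46137963 to 63956911 per library, and 3 counts, the limit that a count of 0 allows, corresponded to 0.0469 to 0.0650 CPM (counts over the library's total, times 1000000). The libraries labelled as basophils in set A held 4, 0 and 0 counts of Fcer1a, the IgE-binding chain that the sort gate used, so differences between the sets are not read as changes within basophils. The summed level of 14 basophil markers was 174 to 669 CPM in A and 1611 to 3384 CPM in B. The 16 monocyte markers summed to 37277 to 45815 CPM in A and 27168 to 35454 CPM in B, led by Lyz2, the myeloid lysozyme, and 16 neutrophil markers summed to 2401 to 10036 CPM in A and 12943 to 23854 CPM in B. In bulk RNA, fewer cells of a type and less RNA per cell cannot be told apart.

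**Figure D1:**
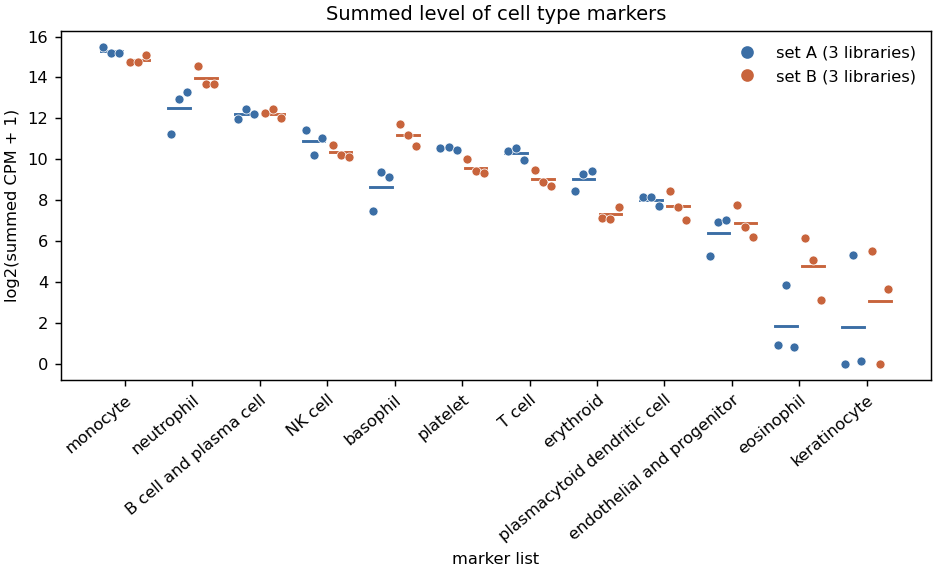
Summed level of the cell type marker lists on a log2(CPM + 1) axis, with 1 point per library, set A on the left and set B on the right of each list and bars at the mean. Basophil and neutrophil markers lie higher in all 3 libraries of B, and T cell, platelet, erythroid and monocyte markers (these through Lyz2) higher in all 3 of A.

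Sequence relations set what can be said of each gene, since reads that fit several paralogs may be assigned to any of them. In the coding sequences of the GENCODE M21 transcripts, Ly6c1 and Ly6c2 were 97.7% identical, with 9 mismatches over 396 bases and no gap. Ly6a was closest to Ly6i, with 86.4% identity over 405 aligned bases, and was 83.2% identical to Ly6g and 82.0% and 81.7% identical to Ly6c1 and Ly6c2. Ly6e and Ly6d stood apart, with at most 53.8% identity to any of the others. Windows of 150 bases, the read length that the labels give, were then looked up in every annotated mouse transcript. Of the 695 windows of Ly6c1, 39 (5.61%) also occurred in Ly6c2, and the same 39 made up 5.79% of the 673 windows of Ly6c2. For Ly6a, Ly6e, Ly6g, Ly6d and Ly6i, 0 windows occurred in another gene.

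The 5′ flanks of Ly6c1 and Ly6c2 are printed because these near-identical genes had unlike levels below. RefSeq's promoter table (GRCm38.p6, 250 bases before to 50 after the start, both genes on the minus strand) holds Ly6c1, Ly6c2 and Ly6g among the members, with 2 starts each, and the first is shown. Ly6c1 lies at chr15:75048788-75049087 and Ly6c2 at chr15:75111922-75112221. Capitals mark bases that do not match the other gene in an alignment with free ends.
Ly6c1: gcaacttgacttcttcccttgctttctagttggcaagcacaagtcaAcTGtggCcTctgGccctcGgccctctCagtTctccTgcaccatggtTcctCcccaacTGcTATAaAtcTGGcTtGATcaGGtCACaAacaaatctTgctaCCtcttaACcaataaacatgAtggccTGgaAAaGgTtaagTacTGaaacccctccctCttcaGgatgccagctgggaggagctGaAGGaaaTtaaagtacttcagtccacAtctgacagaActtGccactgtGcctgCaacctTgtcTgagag
Ly6c2: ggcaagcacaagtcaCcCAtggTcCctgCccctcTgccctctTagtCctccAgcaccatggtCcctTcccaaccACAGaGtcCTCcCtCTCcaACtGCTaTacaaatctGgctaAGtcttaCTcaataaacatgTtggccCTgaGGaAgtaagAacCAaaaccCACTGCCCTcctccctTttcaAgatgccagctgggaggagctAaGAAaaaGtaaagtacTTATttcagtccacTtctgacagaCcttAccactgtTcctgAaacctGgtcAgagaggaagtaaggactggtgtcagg
Over the 282 aligned columns 208 were identical (73.8%), 58 were mismatches and 16 were gaps, less alike than the coding sequences. The interferon motifs TTCNNNGAA (GAS) and ISRE, searched as GAAA followed after any 2 bases by GAAA, had 0 matches on either strand of these windows. They occurred in 8.30% and 3.44% of the 32851 promoters of the table.

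Ly6a was close to absent in set A and well expressed in set B. Its counts were 38, 33 and 70 in A replicates 1, 2 and 3 and 14775, 16289 and 13673 in B replicates 1, 2 and 3. On the CPM scale this was 0.689, 0.624 and 1.52 in A and 297, 275 and 214 in B. The lowest library of B was 141 times the highest library of A, and within B the highest was only 1.39 times the lowest. Means were 0.944 ± 0.498 CPM in A and 262 ± 43.2 CPM in B (SD, n = 3 each), a ratio of 278, and the fitted difference was 8.04 on the log2 scale (SE 0.77, edgeR). The few counts in A lay above the 3 counts that a count of 0 allows. The mean in A was 0.360% of that in B for Ly6a, against 0.108% for Mcpt8 and 0.102% for Prss34, the granule proteases of mouse basophils.

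**Figure D2:**
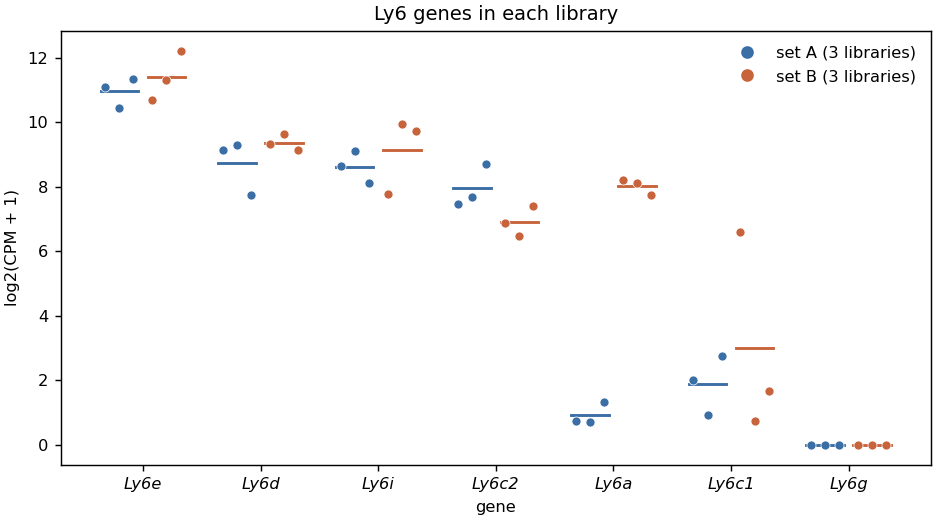
Level of each Ly6 gene on a log2(CPM + 1) axis, 1 point per library, with set A on the left, set B on the right and bars at the mean. Ly6a lies between 0.624 and 1.52 CPM in A and between 214 and 297 CPM in B, while Ly6e, Ly6d and Ly6i overlap between the sets, Ly6c1 is high in 1 library of B and Ly6g is at 0 throughout.

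Few genes met a contrast of this kind at cut-offs of 100 and 1 CPM on the set means. Of the 9196 genes that passed the filter on low counts, 17 (0.185%) averaged at least 100 CPM in B while averaging less than 1 CPM in A, and 1 (0.0109%) had the opposite pattern. These were 0.937% of the genes at 100 CPM or more in B and 0.0543% of those at that level in A. Among the 7 Ly6 genes it was found in Ly6a alone. Of the 17 genes, 3 were at 100 CPM or more in every library of B, namely Mcpt8, Prss34 and Ly6a. These counts depend on the cut-offs, since the mean of Ly6a in A, 0.944 CPM, lay just under 1 CPM. By the size of the fitted difference in either direction, Ly6a ranked 363 among the 9196 genes. Values near 0 in single libraries depend on level in these data. Where the mean was 10 to 100 CPM, the range that holds Ly6c1, 28.0% of library values were under 1 CPM. The share was 3.68% at 100 to 300 CPM, the range that holds Ly6a and Ly6c2. It was 0.0817% at 300 to 1000 CPM, the range of Ly6d and Ly6i.

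Ly6c1 did not share the contrast of Ly6a. It was at 3.08, 0.908 and 5.70 CPM in A replicates 1, 2 and 3, and B replicates 1, 2 and 3 held 95.6, 0.660 and 2.205 CPM. A single library, B replicate 1, carried its level, and the other 2 libraries of B lay within or below the range of A. The fitted difference was 3.25 on the log2 scale (SE 2.42, edgeR), and it was -1.24 without B replicate 1 and 0.47 with the replicate number as a block. The range within B spanned a factor of 145. Its mean over all libraries was 18.0 CPM, and 80.2% of tested genes at 10 to 100 CPM had a library under 1 CPM.

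Ly6c2 lay the other way, lower in B. It was at 175, 205 and 420 CPM in A and at 116, 88.4 and 169 CPM in B. The sets did not overlap, though narrowly, the lowest library of A being 1.04 times the highest of B. Means were 267 ± 134 CPM in A and 124 ± 41.0 CPM in B (SD, n = 3 each), with a fitted difference of -1.16 on the log2 scale (SE 0.50, edgeR) and a value of -0.74 without A replicate 3, the highest library. Over the tested genes, 3.91% had no overlap and lower values in B, and 10.2% had no overlap and higher values in B.

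Which gene of the Ly6c pair was counted differed by library. Ly6c1 made up 1.73% of the pair's 9842 counts in A replicate 1 (95% exact Clopper-Pearson interval 1.48 to 2.00%). In A replicates 2 and 3 its share was 0.442% (0.326 to 0.585%) and 1.34% (1.18 to 1.51%). Set B held shares of 0.740% (0.527 to 1.01%) in replicate 2 and 1.29% (1.08 to 1.52%) in replicate 3, and replicate 1 stood apart at 45.2% (44.3 to 46.2%). These intervals cover counting error only, since reads without molecular identifiers are not independent molecules. The sum of both genes in CPM was 179, 206 and 426 in A against 211, 89.1 and 171 in B. Summed over the pair, the sets overlapped, because B replicate 1 then lay above A replicates 1 and 2.

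Ly6e was the most abundant of the family. It was at 2164, 1402 and 2621 CPM in A and at 1638, 2524 and 4738 CPM in B, so that the sets overlapped and 1 library, B replicate 3, lay above the rest. Its fitted difference was 0.44 on the log2 scale (SE 0.44, edgeR) and -0.06 without that library. The level exceeded that of 99.6% of the tested genes.

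Ly6d and Ly6i, of which Ly6i is the closest relative of Ly6a, were present in every library. Ly6d was at 559, 633 and 216 CPM in A and at 645, 796 and 559 CPM in B, where A replicate 3 was the low library. Its fitted difference was 0.37 (SE 0.44, log2, edgeR), and 0.01 without A replicate 3. Ly6i was at 397, 549 and 279 CPM in A and at 217, 983 and 851 CPM in B. The lowest of all 6 values of Ly6i was therefore in B, in replicate 1, where Ly6a was at its highest. Its fitted difference was 0.63 (SE 0.58, log2, edgeR).

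Ly6g had 0 counts in all 6 libraries. The limit that a count of 0 allows was 0.0544 to 0.0650 CPM in A and 0.0469 to 0.0603 CPM in B, for counting error only. In the same libraries S100a8, which encodes a subunit of neutrophil calprotectin, was at 1259 to 5378 CPM in A and at 7251 to 13750 CPM in B, and none of the 16 neutrophil markers was at 0 throughout. How reads of Ly6g were assigned is not stated by the labels.

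**Figure D3:**
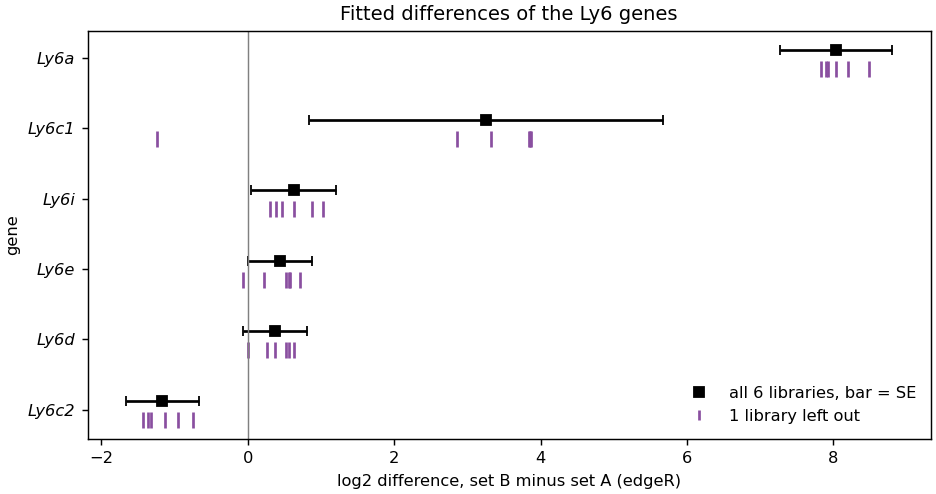
Fitted log2 difference of set B minus set A by edgeR for the 6 Ly6 genes with counts, black squares with bars of 1 SE, and purple ticks for the fits that leave out 1 library each. Ly6a lies near 8 in every fit, the ticks of Ly6c1 run from -1.24 to 3.87, and those of Ly6c2 stay below 0.

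In the fit over all genes, 6 of the 7 Ly6 genes passed the filter and 0 were called at an adjusted p under 0.05 by edgeR's quasi-likelihood test, where 0.0217% of the 9196 tested genes were called. At an unadjusted p under 0.05 the count was 1, Ly6a, where 5.05% of the tested genes were higher and 1.32% lower. DESeq2 called Ly6a among 11.4% of its 10432 genes, and edgeR called it with the stricter filter. Since Ly6a was chosen on this contrast, nothing is read from these calls. Fitted values lay above 0 for 5 of the 6 genes and below 0 for 1. Their median was 0.54 on the log2 scale, beside -0.06 over all genes tested. Of the 6, 1 (Ly6a) had no overlap with higher values in B, 1 (Ly6c2) had no overlap with lower values in B, and 4 overlapped. Over all genes tested, 48.0% had a fitted value above 0. No overlap was found with higher values in B for 10.2% and with lower values in B for 3.91%. No test set the counts of the 6 genes against these shares.

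Levels were set side by side between genes per kilobase of the longest coding transcript (GENCODE M21). In A the order was Ly6e (904 ± 270 CPM per kb), Ly6d (631 ± 300), Ly6i (353 ± 117), Ly6c2 (325 ± 163), Ly6c1 (3.83 ± 2.84) and Ly6a (0.988 ± 0.521; SD, n = 3 each, all in CPM per kb). Neighbours in that order overlapped over the 3 libraries except Ly6c2 and Ly6c1, which were separated. In B it was Ly6e (1301 ± 700 CPM per kb), Ly6d (896 ± 162), Ly6i (591 ± 354), Ly6a (274 ± 45.2), Ly6c2 (151 ± 49.8) and Ly6c1 (38.9 ± 64.4; SD, n = 3 each, all in CPM per kb). There the neighbours overlapped except Ly6a and Ly6c2, whose closest libraries were 224 and 206 CPM per kb. Ly6a thus stood at the foot of the expressed members in A and in the middle of them in B. With the union of annotated exons as the length, Ly6d stood above Ly6e in both sets (631 and 545 CPM per kb in A, 896 and 784 CPM per kb in B), so the order of these 2 depends on the length used. The order of Ly6a and Ly6c2 did not change with that length in either set.

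As a family the 7 genes took 0.279% to 0.354% of all counts in A and 0.301% to 0.653% in B. Ly6e alone supplied 50.2% to 74.0% of the family's counts in A and 54.1% to 72.5% in B. Ly6a supplied 0.0209% to 0.0428% in A and 9.87%, 5.90% and 3.27% in B replicates 1, 2 and 3. Its share varied more in B than its CPM did, since the summed Ly6 level itself ran from 3008 to 6533 CPM there. Ly6c2 took 5.32%, 7.33% and 11.9% of the family's counts in A and 3.85%, 1.895% and 2.59% in B.

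**Figure D4:**
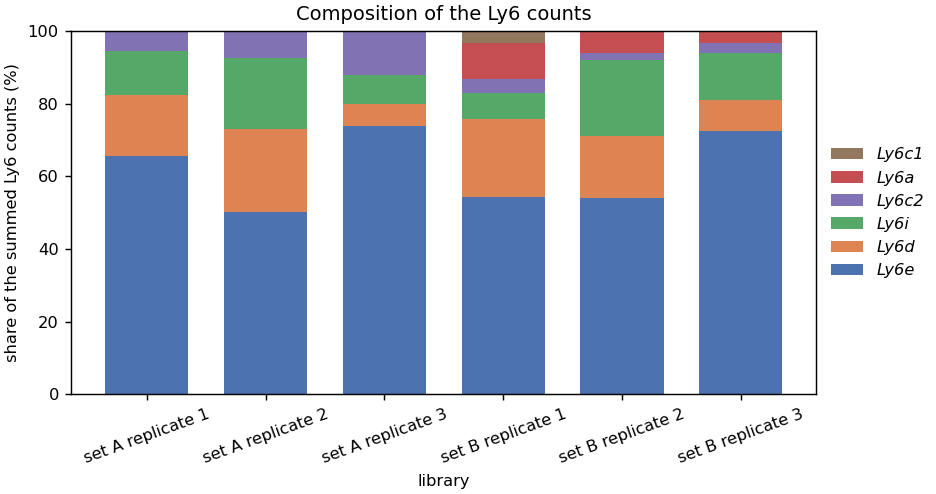
Share of the summed Ly6 counts from each gene (%), 1 stacked bar per library. Ly6e is the largest part of every bar, Ly6a is visible in the bars of set B alone, and Ly6c1 appears in B replicate 1.

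Most of the cluster around the members held few or no counts. Between Psca and Gpihbp1 the annotation (GENCODE M21, GRCm38) lists 50 genes, all in the table, of which 43 were not members. Of these 43, 33 were at 0 in all 6 libraries and 0 reached 1 CPM in every library, whereas 4 members (Ly6d, Ly6e, Ly6i and Ly6c2) did. Ly6i is the coding neighbour of Ly6a on one side and Ly6c1 on the other, and neither had its pattern of near 0 in A with a high level in all of B. The pseudogene Gm8000, between Ly6i and Ly6a, was at 7.76 CPM in A replicate 2 and under 1 CPM in the other 5 libraries. I830127L07Rik, a transcribed pseudogene between Ly6c2 and Ly6g, was at 0, 0 and 42.9 CPM in A and at 0.121, 24.5 and 6.41 CPM in B. Psca, a Ly6-type antigen first described on prostate cells, was at 259 CPM in B replicate 1 and at most 0.0867 CPM in the other 5 libraries. B replicate 1 thus held both the high value of Psca and that of Ly6c1.

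**Figure D5:**
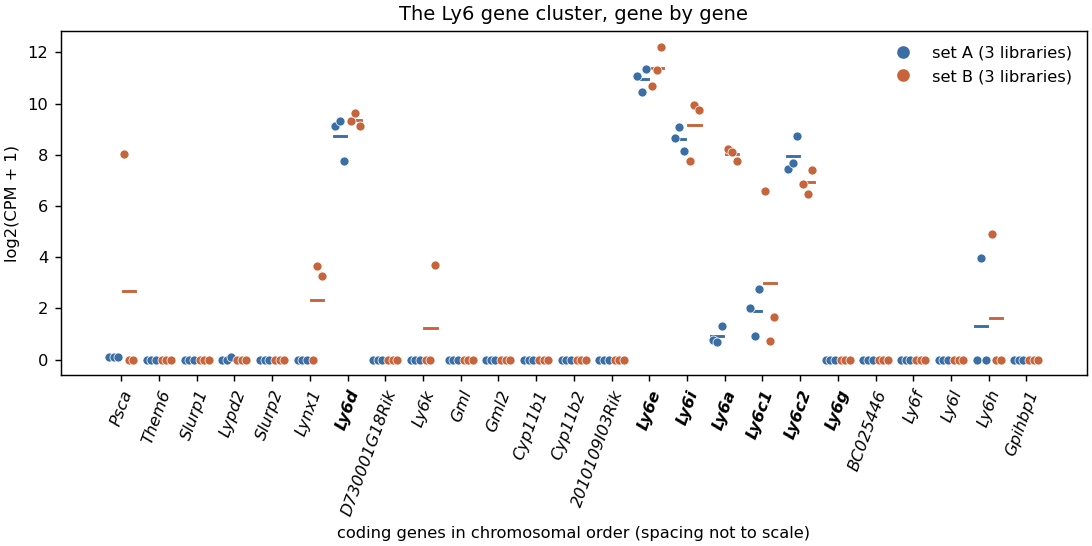
Coding genes of the Ly6 cluster in chromosomal order (spacing not to scale), with log2(CPM + 1) of each library and bars at the mean, and members in bold. Ly6d and the run from Ly6e to Ly6c2 carry the counts, Ly6a is split between the sets, and most genes around them are at 0.

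Beyond the members, the Ly6/uPAR domain family showed the same patchy use. Of 38 further genes of this fold with a match in the table, 24 were at 0 in all libraries and 9 had a mean of at least 1 CPM. Plaur, the urokinase receptor of myeloid cells, was the 1 gene at 1 CPM or more in all 6 libraries. It was at 244, 478 and 205 CPM in A and at 434, 527 and 306 CPM in B, a log2 difference of 0.34 (SE 0.41, edgeR adjusted p = 1.00). Cd177, an antigen of neutrophil subsets, was at most 0.254 CPM in A and at 0.121, 73.6 and 26.8 CPM in B, a difference of 8.36 (SE 3.77, log2, adjusted p = 0.913 by edgeR). Of the remaining genes at that level, Ly6h was at 14.9 CPM in A replicate 2 and 29.2 CPM in B replicate 1, and Pate2 at 52.4 CPM in A replicate 2 and at most 2.30 CPM elsewhere. Cd59b, which encodes a complement inhibitor, was at 34.5 CPM in A replicate 3 and 0 elsewhere. Ly6g6c was at 25.2 CPM in B replicate 2, Ly6k at 12.1 CPM in B replicate 3, and Lynx1 at 11.8 and 8.69 CPM in B replicates 2 and 3. Only Plaur and Cd177 passed the filter, and 0 were called by edgeR or at an unadjusted p under 0.05. DESeq2 called 2, Cd177 (adjusted p = 0.0268) and Lynx1 (adjusted p = 0.0190), both higher in B. Over all genes DESeq2 called 11.4% of 10432, with 1093 higher in B and 99 lower. How many of these Ly6/uPAR genes had a DESeq2 adjusted p was not counted, so nothing is read from the 2 calls.

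Interferons raise Ly6a, Ly6c and Ly6e in many leukocytes, so the genes of that pathway were read out beside them. Of 18 interferon receptors, kinases and transcription factors, 17 were tested and 0 were called in either direction by edgeR, with 0 at an unadjusted p under 0.05 and 0 by DESeq2. Fitted values lay below 0 for 13 of the 17, with a median of -0.47 beside -0.06 over all genes tested. Ifngr1, the ligand-binding chain of the interferon gamma receptor, was at 1457, 1091 and 1122 CPM in A and at 1025, 944 and 903 CPM in B (difference -0.47 on the log2 scale, SE 0.21, edgeR adjusted p = 0.919). Irf8, a factor of myeloid and dendritic lineages, was at 457, 487 and 219 CPM in A and at 276, 183 and 188 CPM in B (difference -0.97 on the log2 scale, SE 0.43, edgeR adjusted p = 0.871). Both genes were thus present in all libraries, Ifngr1 at 903 CPM or more in each library.

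Of 44 interferon-stimulated genes 28 were tested and 0 were called by edgeR, and at an unadjusted p under 0.05 the counts were 3 higher in B (Isg20, Ifit3b and Zbp1) and 0 lower, beside 5.05% higher and 1.32% lower over all genes tested. Fitted values lay above 0 for 18 of the 28, with a median of 0.40. Summed over the list, the level was 3528 to 4487 CPM in A and 4592 to 4802 CPM in B. Its most abundant members overlapped between the sets: Psmb8, a subunit of the immunoproteasome, was at 1148, 677 and 559 CPM in A and at 762, 770 and 1270 CPM in B. Samhd1 was at 510 to 786 CPM in A and 723 to 1106 CPM in B, and Ifi27l2a at 389 to 448 CPM in A and 274 to 674 CPM in B (adjusted p = 1.00 for these 3 genes by edgeR). DESeq2 called 6 genes of the list, all higher in B (Isg20, Ifit3, Ifit3b, Mx1, Eif2ak2 and Dhx58). Over all genes it called 11.4% of 10432, with 1093 higher in B and 99 lower. How many genes of the list had a DESeq2 adjusted p was not counted, and no test set these counts against the background. Isg20, an interferon-induced exonuclease, averaged 0.191 ± 0.0620 CPM in A and 97.6 ± 25.0 CPM in B (SD, n = 3 each, log2 difference 8.85, SE 1.65, adjusted p = 0.508 by edgeR).

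Among the enzymes that build and attach GPI anchors, on which Ly6 proteins depend, edgeR called 0. Of 27 matched genes 19 were tested, with 10 fitted values above 0, 9 below 0 and a median of 0.05 (-0.05 with RLE scaling). At an unadjusted p under 0.05 edgeR counted 1 higher (Pigf) and 1 lower (Pigc), and DESeq2 called Pigf higher and Pign lower. The background shares are those given for the interferon-stimulated genes, and no test set these small counts against them. Pigc, a subunit of the enzyme that starts the anchor, was at 110, 304 and 117 CPM in A and at 68.2, 67.5 and 60.5 CPM in B, with no overlap, as in 3.91% of all genes tested (difference -1.53 on the log2 scale, SE 0.63, edgeR adjusted p = 0.762). Pigf was at 0.0252 ± 0.0437 CPM in A and 40.3 ± 10.2 CPM in B (SD, n = 3 each, adjusted p = 0.508 by edgeR). Pigc was the most abundant gene of the list, followed by Pigx, at 184, 32.4 and 34.2 CPM in A and at 43.5, 59.5 and 83.9 CPM in B, and Pigs, at 65.2, 0.265 and 0.260 CPM in A and at 92.3, 75.4 and 184 CPM in B. Beside Pigc, 2 tested genes of the list, Pigf and Pigs, had no overlap with higher values in B, as in 10.2% of all genes tested. Piga, the catalytic subunit of that first enzyme, had 0 counts in all 6 libraries.

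Cell type markers moved between the same sets, and their part in the Ly6 values was not tested. With higher Ly6a in B came a higher sum of basophil markers, of which 2 of 12 tested rose by edgeR (Mcpt8 and Prss34, adjusted p = 0.0125 and 0.0155). Fitted values lay above 0 for 8 of the 12 and below 0 for 4 (Gata2, Il3ra, Ccl3 and Alox5). At an unadjusted p under 0.05 by edgeR 6 were higher and 0 lower, and DESeq2 called 7 of the list higher and 0 lower. Neutrophil markers were also higher in sum. Of these, 0 of 14 tested were called by edgeR, 13 had a fitted value above 0 and 5 were higher at an unadjusted p under 0.05. DESeq2 called 3 neutrophil markers higher and 0 lower. Over all genes tested, 48.0% had a fitted value above 0, and at an unadjusted p under 0.05 5.05% were higher and 1.32% lower. DESeq2 called 11.4% of its 10432 genes. With lower Ly6c2 in B came lower T cell markers, 1007 to 1474 CPM summed in A and 415 to 702 CPM in B (0 of 14 called by edgeR, 2 lower at an unadjusted p under 0.05, 1 lower by DESeq2). Monocyte markers, a list that does not separate classical monocytes with the Ly6C antigen from other monocytes, were lower in sum through Lyz2. Without Lyz2 the other 15 summed to 4858 to 6059 CPM in A and 4512 to 5708 CPM in B, which overlap. Chil3, a chitinase-like protein of monocytes, lay the other way, at 37.1 ± 35.3 CPM in A and 619 ± 81.8 CPM in B (SD, n = 3 each). Of the 14 tested, 0 were called by edgeR, with 1 higher and 3 lower at an unadjusted p under 0.05, and DESeq2 called 1 higher (F13a1) and 1 lower. Beside Ly6d, B cell and plasma cell markers summed to 3938 to 5532 CPM in A and 4108 to 5539 CPM in B, and 10 of the 12 keratinocyte markers, Krt5 and Krt14 among them, had 0 counts in every library. Endothelial and progenitor markers, which stand beside Ly6a and Ly6c1 in those cells, summed to 37.3 to 129 CPM in A and 71.5 to 215 CPM in B. B replicate 1, with the high Ly6c1, was the highest of them, almost wholly through Pecam1 (214.6 CPM). Cdh5, Kdr, Tek, Emcn and Vwf had 0 counts in that library, and Tie1, Kit and Meis1 had 0 counts throughout. Ecscr, an endothelial gene outside the list and named for its likeness to Ly6c1, went the other way. It was at 48.9 CPM in B replicate 1 and at most 0.610 CPM in every other library. The remaining marker lists gave 0 calls by edgeR. Platelet markers summed to 1400 to 1536 CPM in A against 639 to 1018 CPM in B, and erythroid markers to 349 to 696 CPM against 136 to 204 CPM, with Alas2 and Slc4a1 at 0 throughout. NK cell markers (1168 to 2764 CPM in A, 1108 to 1647 CPM in B), plasmacytoid dendritic cell markers (209.5 to 282 CPM, 128 to 344 CPM) and eosinophil markers (0.737 to 13.2 CPM, 7.54 to 70.2 CPM) overlapped, and the eosinophil genes Prg2 and Epx had 0 counts.

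The genes with the profiles most like each member were found over the 6 libraries, which share their sets and depth. Likeness was the root mean square difference between centred profiles of log2(CPM + 1). Nearest to Ly6a were Ruvbl2 (0.320 log2 units), Arg2 (0.388), Isg20 (0.456), Drg2 (0.479) and Kctd10 (0.484), each under 0.2 CPM on average in A. With log2(CPM + 0.1) 0 of these 5 remained among the nearest, so the names rest on the pseudocount. Ly6e was nearest to Gm17108 (0.111 log2 units) and Rpp21 (0.173), Ly6d to Sec22b (0.191) and Casp1 (0.202), and Ly6i to Slc16a3 (0.165). Ly6c2 was nearest to the pseudogene Nudc-ps1 (0.231 log2 units) and the hexokinase gene Hk2 (0.245), and Ly6c1 to Rnf19a (0.534), which averaged 24.7 CPM in B. The endothelial gene Ecscr had rank 3 for Ly6c1 (0.610 log2 units). No other Ly6 gene was among the 5 nearest of any member.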

How the data were processed

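RNA-seq was read from 1 table for 6 libraries. The authors deposited raw counts per Ensembl gene, 1 column per library and not normalized, per the file header. The submitters' processing notes list DESeq2, HISAT2 2.2.1 and cutadapt 1.9 and do not say what each did, and per the labels' protocols libraries were made by Smart-seq2. The counting program, build, annotation and strandedness: not given in the sources used here. Low counts were more often 4 (5211 values) than 3 (819) or 5 (660), so totals may not equal numbers of fragments. Symbols were found for 55141 of 55401 identifiers.

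CPM is the count over the library's total, times 1000000. Set B was compared with set A over all 6 libraries by edgeR 4.0.16 in R 4.3.3 (filterByExpr, TMM, robust quasi-likelihood test, Benjamini-Hochberg adjustment over 9196 genes, threshold 0.05), checked on simulated counts. Alternatives were DESeq2 1.42.0, scaling by RLE or by library size alone, omitting the filter, a stricter one (in 1 set, each library at 10 counts or more, with a mean of 10 CPM), the replicate number as a block, leaving out 1 library at a time and, added after seeing the data, counts divided by 4. Lengths, transcripts and gene order came from GENCODE M21. The members and the lists were chosen with earlier results of these data known. Named were the 7 members, other Ly6/uPAR genes with a mean of at least 1 CPM, the called and up to 3 most abundant genes of each companion list as far as a result turned on them, markers at 0, and the 5 nearest profiles (the first 1 or 2 for most members). Genes named for an unadjusted p, a DESeq2 call or their place in the cluster were chosen after their values were seen. Some genes of the lists are not reported here by name. The monocyte sum without Lyz2 and the levels per set by exon union were added after the values were seen.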

Additional observations from a re-analysis of the deposited data

How the results depend on the processing

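The direction of Ly6a and Ly6c2 was the same under all 13 alternatives. Ly6a ran from 7.82 to 8.48 and Ly6c2 from -1.43 to -0.74 on the log2 scale with 1 library left out. Ly6d ran from 0.01 to 0.63 and Ly6i from 0.31 to 1.03 in the same fits. Leaving out 1 library gave -1.24 to 3.87 for Ly6c1 (below 0 without B replicate 1) and -0.0566 to 0.72 for Ly6e (below 0 without B replicate 3), and the replicate block gave 0.47 for Ly6c1. The labels state no pairing by replicate number. Same-numbered deviations from the set means correlated at 0.028, -0.024 and 0.026, which with 3 libraries per set cannot exclude a shared batch. Over all genes edgeR called 2 higher and 0 lower in B. It called 0 and 0 with the replicate block, and 0 to 1 higher with 1 library left out (0 without any of A replicates 1 to 3 or B replicates 1 and 2), while DESeq2 called 1093 higher and 99 lower. In the companion lists 2 genes were called higher, against 0 with the replicate block, 0 to 1 with 1 library left out and 22 by DESeq2, which also called 4 lower. The cause of these shifts was not tested. The median of all genes was -0.06, -0.16 with RLE scaling and 0.05 with library size alone. Of the 5 nearest profiles, log2(CPM + 0.1) kept 0 for Ly6a, 1 for Ly6c1, 3 each for Ly6c2 and Ly6d and 4 each for Ly6e and Ly6i.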
